A study of Homo sapiens with 8 samples.

Results

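The EGF receptor family and its ligands were followed in human lung adenocarcinoma cells, an unnamed line of the non-small cell type, after treatment with a PPARγ ligand, a platinum drug or both. The members were the receptor genes EGFR, ERBB2 and ERBB3 and the ligand genes AREG, EREG, TGFA, HBEGF and BTC, read by every probe set of the Affymetrix HG-U133A array whose annotation gave that gene symbol alone. This rule found 18 probe sets for 7 of the 8 genes, out of 22283 probe sets and 11963 named genes in the table. No probe set carried the symbol AREG in the annotation used, so amphiregulin was not analysed here. Of the 18 probe sets, 12 lay above the filter on dim probe sets and entered the tests. They read EGFR (5), ERBB2 (2), EREG (1), TGFA (2) and HBEGF (2). ERBB3 and BTC had no probe set above the filter.

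The 4 treatment groups had 2 arrays each. Cells received 1 µM rosiglitazone, 10 µM carboplatin, the combination of both drugs, for which the labels do not restate the doses, or the control treatment, named as DMSO/control in the design text and as control medium in the protocol. All were treated for 24 h. The series title concerns synergy between PPARγ ligands and platinum drugs. Nothing in the labels says that paired arrays of 1 treatment were grown apart, so the spread behind every p-value is that between these arrays and may be technical. The arrays measured RNA of whole cultures, so fewer cells expressing a gene and less RNA per cell cannot be told apart.

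EGFR, ERBB2 and ERBB3 encode receptors of the ErbB family, which sit in the cell membrane, pair up when a ligand binds and pass the signal through RAS-ERK and PI3K-AKT. The ligands are made as membrane-anchored precursors and are released by metalloproteases such as ADAM17 and ADAM10. Lung adenocarcinomas often depend on this pathway, and cells that make their own ligand can stimulate their own receptors.

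In these cells TGFA was the 1 gene of the 5 members tested that passed, with 1 of its 2 tested probe sets. It was higher in the 4 arrays with rosiglitazone than in the 4 without, a call lost in 10 of 18 alternative settings. Transforming growth factor α, the product of TGFA, is a ligand of EGFR. No other tested receptor or ligand gene passed in any of the 8 contrasts fitted, and AREG, ERBB3 and BTC were not tested.

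The array medians of the deposited signal were 46.4 and 54.3 with rosiglitazone, 37.6 and 44.6 with carboplatin, 37.2 and 52.2 with the combination, and 45.8 and 36.2 in control. Signals below are deposited values on a linear scale, given for array 1 and then array 2. Log2 values are of signal + 16 after quantile normalization, and a change is a difference of log2 values with the standard error (SE) from limma. The epithelial keratin genes KRT7, KRT8 and KRT18 had signals of 1667 or more in every array, while EPCAM, CLDN4, CLDN7 and NKX2-1 were below the filter. Summed signals of the 5 leukocyte markers on the array were 104 and 145 with rosiglitazone, 52.5 and 84.5 with carboplatin, 60.9 and 149 with the combination, and 71.0 and 74.8 in control. Of these 5, CD3E alone passed the filter, PTPRC ran from 0.784 to 18.5, and none was listed at 0. The 6 fibroblast markers, of which COL1A1 and DCN passed the filter, summed to 239 and 257 with rosiglitazone, 193 and 241 with carboplatin, 198 and 274 with the combination, and 182 and 201 in control (lowest and highest array of each group, as for the leukocyte sums). None of the 4 endothelial markers passed. The part of these markers in the results was not tested.

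The promoters of TGFA and EREG are shown because TGFA was the ligand gene that passed the test, while EREG, the next ligand gene by size of change of its brightest probe set with rosiglitazone, did not. Each sequence is the 250 bases before the first RefSeq start of the gene on its coding strand, build GRCh38.p14. TGFA lies on the minus strand of chromosome 2 (70447284 to 70553826), and its window is chr2:70553827-70554076. EREG lies on the plus strand of chromosome 4 (74365145 to 74388749), and its window is chr4:74364895-74365144. Capitals mark every match, on either strand, to the GC box GGGCGG, the TATA box TATAAA or the nuclear receptor site AGGTCA.
TGFA: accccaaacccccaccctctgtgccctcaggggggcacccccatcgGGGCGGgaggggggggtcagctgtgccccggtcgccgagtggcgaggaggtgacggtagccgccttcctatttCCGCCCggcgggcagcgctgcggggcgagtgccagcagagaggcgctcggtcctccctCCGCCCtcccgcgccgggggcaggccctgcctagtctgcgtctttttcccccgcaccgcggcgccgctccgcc
EREG: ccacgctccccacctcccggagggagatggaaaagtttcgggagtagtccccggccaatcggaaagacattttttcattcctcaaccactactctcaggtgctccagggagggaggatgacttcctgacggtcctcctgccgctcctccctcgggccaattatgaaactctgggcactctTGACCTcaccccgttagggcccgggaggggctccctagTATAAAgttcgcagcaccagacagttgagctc

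The TGFA window held 3 GC boxes, starting 204, 131 and 73 bases before the start, and no TATA box or AGGTCA. The window of the second listed TGFA start held no GC box. GC boxes were also found in the windows of HBEGF (5), the first EGFR start (2) and AREG (1). The EREG window held 1 TATA box, 32 bases before the start, 1 AGGTCA at 70 bases on the other strand, and no GC box. Of 35116 RefSeq promoter windows of this length, 42.6% held a GC box, 10.7% a TATA box and 12.1% an AGGTCA. The full PPAR response element, a pair of AGGTCA copies with any 1 base between them, was found in 0.0171% of the windows and in none of the 9 windows of the 7 member genes that the table lists. ERBB3 has none listed. A match of letters is a description of the sequence and not a binding site.

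TGFA was read by 3 probe sets, of which 205016_at had the highest mean. Its signal was 191 and 169 with rosiglitazone, 36.7 and 81.9 with carboplatin, 127 and 177 with the combination, and 69.3 and 74.1 in control. The 4 arrays with rosiglitazone, alone or combined, all lay above the 4 arrays without it. On the normalized log2 scale the group means were 7.45 ± 0.35 with rosiglitazone, 6.23 ± 0.49 with carboplatin, 7.36 ± 0.08 with the combination and 6.55 ± 0.28 in control (SD, n = 2). From high to low the order was rosiglitazone, combination, control, carboplatin. The first pair of neighbours overlapped, as did the last pair, and the gap lay between combination and control.

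Over all 8 arrays, the mean of the rosiglitazone and combination groups exceeded the mean of the carboplatin and control groups by 1.01 ± 0.18 for TGFA (2.02-fold, 95% confidence interval 0.61 to 1.42 in log2, limma adjusted p = 0.0244). In this contrast 0.885% of the 13338 probe sets tested passed, and 0.667% of the 13338 passed as higher. Of the 13338, 3.20% were higher with no overlap between the 2 sets of 4 arrays. The direction held in all 18 alternative settings, with changes from 0.71 to 1.19, but the call was lost in 10 of them. It was lost without control 1 (adjusted p = 0.11), control 2 (0.0517), rosiglitazone 1 (0.114), carboplatin 1 (0.081), combination 1 (0.0994) or combination 2 (0.0712). It was also lost with array brightness as a covariate, where the change was 1.08 (adjusted p = 0.065). Of the 7 epithelial marker genes above the filter, the keratin gene KRT7 also passed in this contrast, at 0.56 ± 0.09 (limma adjusted p = 0.0138), and the other 6 did not. KRT7 signals were 3185 and 5177 with rosiglitazone, 2082 and 2639 with carboplatin, 3174 and 5187 with the combination, and 2605 and 2446 in control. Its part in the TGFA result was not tested.

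**Figure D1:**
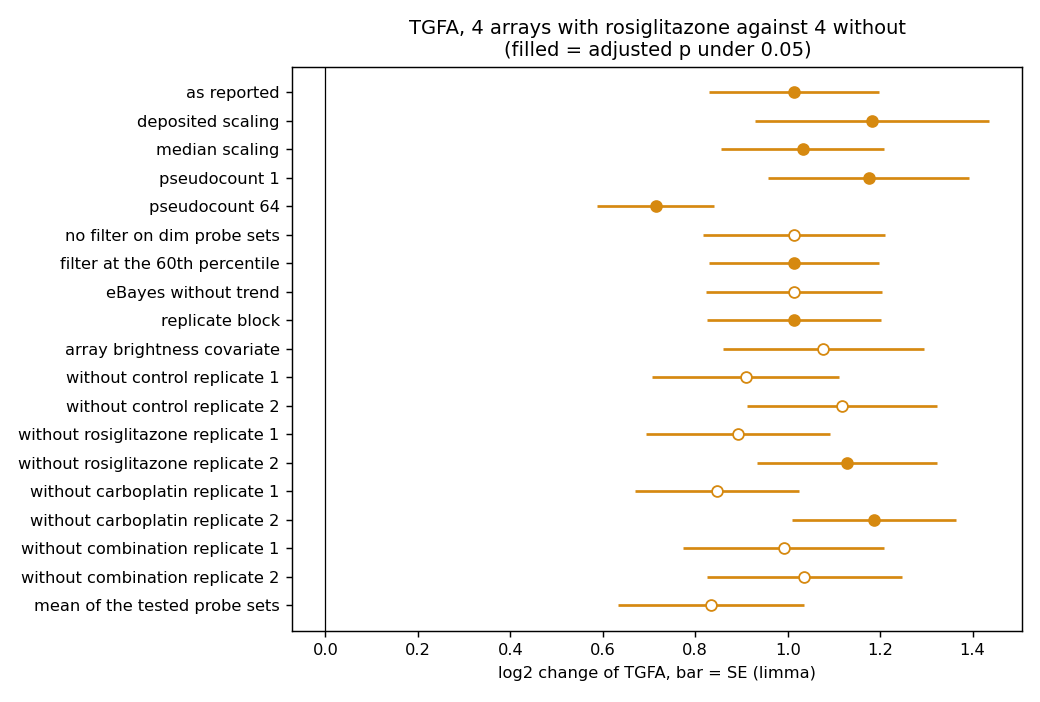
Change of TGFA probe set 205016_at between the 4 arrays with rosiglitazone and the 4 without, on the horizontal axis in log2 units, for each processing setting on the vertical axis. Points are limma estimates, bars are the SE, and filled points have an adjusted p under 0.05. All estimates lie between 0.71 and 1.19, and 10 of the 18 alternatives are open points.

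The single comparisons of TGFA were smaller tests, with 2 arrays on each side. Rosiglitazone exceeded control by 0.90 ± 0.26 (1.86-fold, limma adjusted p = 0.244), and the combination exceeded control by 0.81 ± 0.26 (1.75-fold, limma adjusted p = 0.388). Neither passed. The treated arrays lay above the control arrays without overlap in both comparisons, and with 2 arrays a side 42.0% of all probe sets did not overlap for rosiglitazone against control and 36.8% for the combination. Carboplatin differed from control by -0.32 ± 0.26 (limma adjusted p = 0.928), with overlapping arrays. The combination exceeded carboplatin by 1.13 ± 0.26 (2.19-fold, limma adjusted p = 0.204), a value singled out after it was seen. The combination differed from the sum of the single drugs by 0.23 ± 0.37 (limma adjusted p = 0.951 for the interaction), an interval of -0.57 to 1.04.

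The second TGFA probe set above the filter, 211258_s_at, had signals of 113 and 59.8 with rosiglitazone, 32.7 and 50.7 with carboplatin, 32.6 and 96.5 with the combination, and 23.2 and 28.5 in control. Rosiglitazone, carboplatin and the combination each lay above control without overlap, and combination 1 was as low as the lower carboplatin array. Its difference between the 4 arrays with rosiglitazone and the 4 without was 0.65 ± 0.25 and did not pass (limma adjusted p = 0.389). With the mean of both probe sets in place of 205016_at, the difference was 0.83 (limma adjusted p = 0.106). For carboplatin against control the 2 probe sets differed in sign, at 0.44 ± 0.35 for 211258_s_at. They also differed in sign for the interaction, at -0.79 ± 0.50 for 211258_s_at (limma adjusted p = 0.872). The same held for the 4 arrays with carboplatin against the 4 without, at -0.21 ± 0.18 for 205016_at and 0.04 ± 0.25 for 211258_s_at. The combination differed from carboplatin by 0.26 ± 0.35 for 211258_s_at, with overlapping arrays. The third probe set, 205015_s_at, was below the filter, with signals from 1.83 to 5.13 over the 8 arrays.

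**Figure D2:**
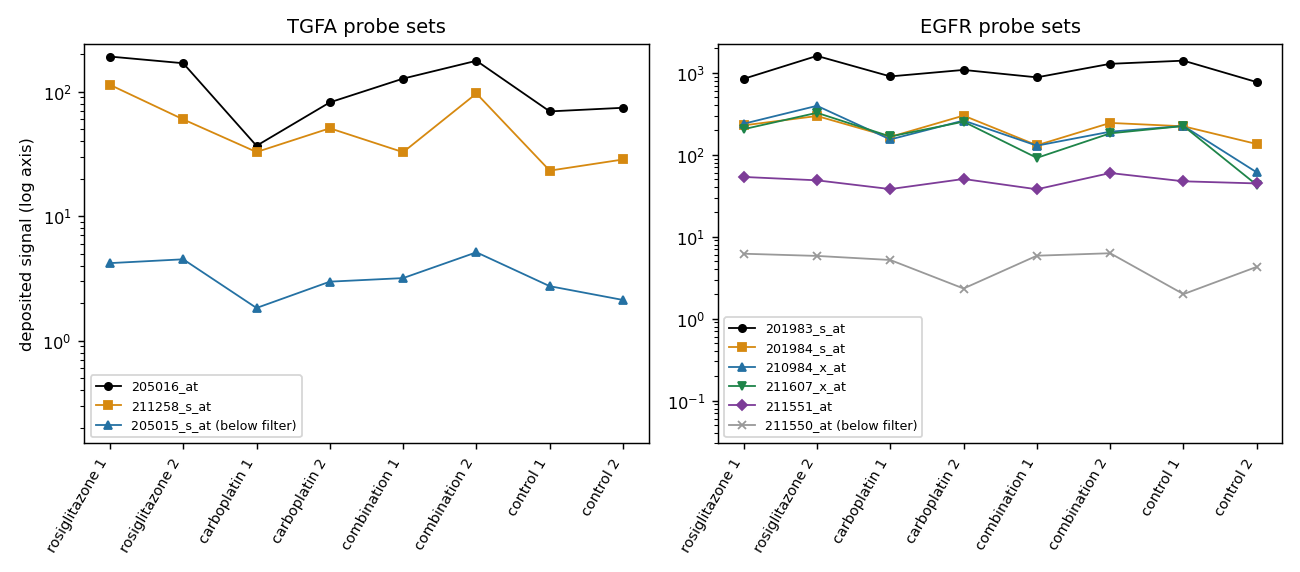
Deposited signal, on a log axis, of every TGFA probe set (left) and every EGFR probe set (right) in each of the 8 arrays along the horizontal axis, with lines joining the values of 1 probe set. TGFA 205016_at is at 127 or more in the 4 arrays with rosiglitazone and at 81.9 or less in the others, and EGFR 210984_x_at and 211607_x_at drop to 60.9 and 42.8 in control 2.

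EREG encodes epiregulin, a ligand of EGFR and ERBB4, and had 1 probe set. Its signal was 285 and 388 with rosiglitazone, 159.9 and 219 with carboplatin, 165 and 314 with the combination, and 243 and 162 in control. After normalization the rosiglitazone arrays (log2 8.26 and 8.29) lay above the control arrays (7.89 and 7.74). In that comparison 42.0% of all probe sets did not overlap. Rosiglitazone differed from control by 0.46 ± 0.15 (1.37-fold, limma adjusted p = 0.325), which did not pass. The combination differed from control by 0.10 ± 0.15 (limma adjusted p = 0.923) and carboplatin by -0.03 ± 0.15 (limma adjusted p = 0.989). Among the members EREG had the smallest p in the comparison of the 4 arrays with carboplatin and the 4 without, at -0.19 ± 0.11 (limma adjusted p = 0.997), where 0.0300% of probe sets passed.

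HBEGF encodes heparin-binding EGF-like growth factor, a ligand of EGFR and ERBB4. Its brightest probe set, 203821_at, had signals of 61.1 and 51.6 with rosiglitazone, 42.0 and 65.4 with carboplatin, 41.8 and 46.1 with the combination, and 70.1 and 47.4 in control. The changes against control were -0.25 ± 0.23 with rosiglitazone, -0.13 ± 0.23 with carboplatin and -0.38 ± 0.23 with the combination (limma adjusted p = 0.737, 0.971 and 0.712), and none passed. The probe set 38037_at gave -0.51 ± 0.28, -0.27 ± 0.28 and -0.22 ± 0.28 in the same order, and none of these passed either. The third HBEGF probe set, 222076_at, was below the filter at 1.22 to 6.51. BTC encodes betacellulin, a further ligand of EGFR and ERBB4, and its 1 probe set was below the filter. BTC signals were 13.8 and 17.1 with rosiglitazone, 14.6 and 6.95 with carboplatin, 20.4 and 13.96 with the combination, and 10.2 and 3.27 in control, and were not tested.

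EGFR, the receptor of TGFα, was read by 6 probe sets that did not move together. The brightest, 201983_s_at, had signals of 845 and 1609.7 with rosiglitazone, 904 and 1085 with carboplatin, 881 and 1288 with the combination, and 1408 and 771 in control. The groups overlapped in all 3 comparisons with control. The changes were -0.08 ± 0.18 with rosiglitazone (95% confidence interval -0.49 to 0.32), -0.01 ± 0.18 with carboplatin (-0.41 to 0.40) and -0.07 ± 0.18 with the combination (-0.47 to 0.34), with limma adjusted p-values of 0.913, 0.998 and 0.968. With the deposited scaling the change with rosiglitazone was 0.16, where the median of all probe sets was 0.22.

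The EGFR probe sets 201984_s_at, 210984_x_at and 211607_x_at had lower values in control 2 than in control 1. For 211607_x_at the signal was 205 and 325 with rosiglitazone, 167 and 253 with carboplatin, 91.7 and 183 with the combination, and 224 and 42.8 in control. For 210984_x_at it was 239 and 396 with rosiglitazone, 154 and 262 with carboplatin, 129 and 191 with the combination, and 225 and 60.9 in control. The 2 control arrays thus differed more than 3-fold for both, and the suffix of both names marks probes that can match more than 1 transcript. For 201984_s_at the change against control was 0.29 ± 0.19 with rosiglitazone, 0.39 ± 0.19 with carboplatin and -0.05 ± 0.19 with the combination, and none passed. Carboplatin differed from control by 0.97 ± 0.40 for 211607_x_at and by 0.73 ± 0.32 for 210984_x_at (limma adjusted p = 0.927 each). Rosiglitazone differed from control by 0.98 ± 0.40 for 211607_x_at (limma adjusted p = 0.436) and by 1.01 ± 0.32 for 210984_x_at (limma adjusted p = 0.296). Without control 1 these differences were 1.80 and 1.64 and both passed (limma adjusted p = 0.0332 each), and without control 2 they were 0.14 and 0.38 and neither passed. The interaction was -1.73 ± 0.56 and -1.47 ± 0.46 for the same probe sets (limma adjusted p = 0.821 each), values singled out after they were seen. The remaining EGFR probe sets were 211551_at, at 37.9 to 59.9 in the 8 arrays, and 211550_at, which was below the filter.

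ERBB2 encodes the receptor that has no known soluble ligand and pairs with the other family members. Its brighter probe set, 216836_s_at, had signals of 198 and 243 with rosiglitazone, 164 and 197 with carboplatin, 183 and 296 with the combination, and 282 and 193 in control. The changes against control were -0.32 ± 0.14 with rosiglitazone (limma adjusted p = 0.477), -0.29 ± 0.14 with carboplatin (limma adjusted p = 0.928) and -0.08 ± 0.14 with the combination (limma adjusted p = 0.938). None of these passed. The dimmer probe set 210930_s_at gave 0.03 ± 0.36 with rosiglitazone, -0.10 ± 0.36 with carboplatin and -0.59 ± 0.36 with the combination, and none of these passed either. The 2 ERBB2 probe sets differed in sign with rosiglitazone, in the combination against either single drug and in the interaction. For 216836_s_at and 210930_s_at, the combination differed from carboplatin by 0.21 and -0.49, and from rosiglitazone by 0.24 and -0.62. The interaction was 0.53 ± 0.20 for 216836_s_at (limma adjusted p = 0.821) and -0.52 ± 0.51 for 210930_s_at (limma adjusted p = 0.918).

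ERBB3, a receptor with little kinase activity of its own that binds neuregulins, was below the filter with both probe sets. Signals of 215638_at ran from 18.05 to 26.8 and those of 202454_s_at from 8.31 to 31.5 over the 8 arrays. These values have no test.

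**Figure D3:**
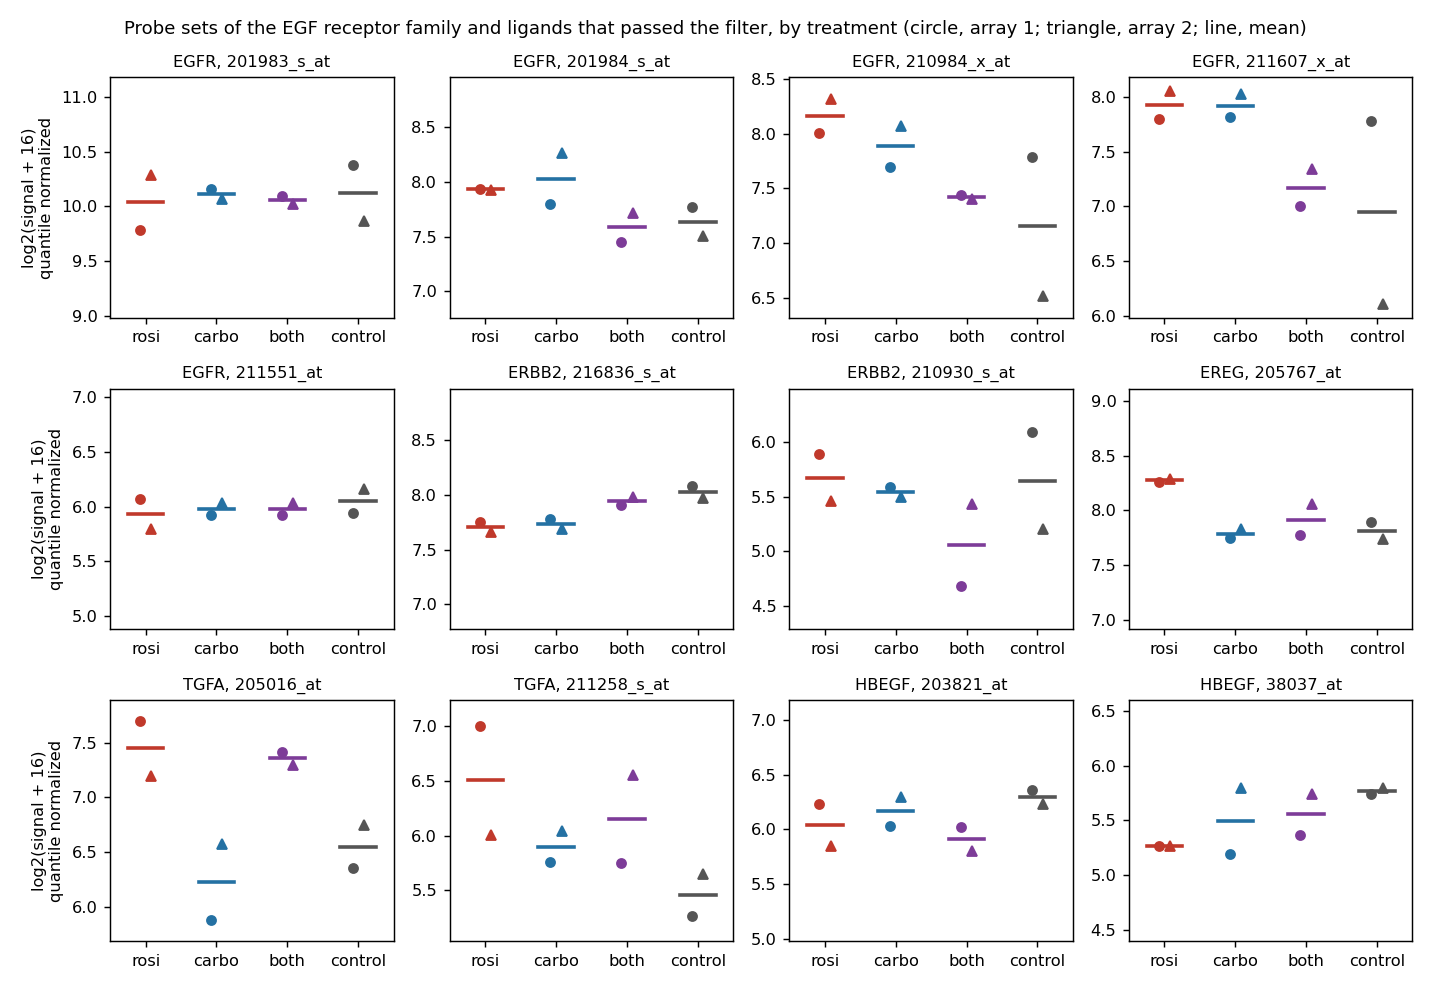
Normalized log2(signal + 16) of the 12 member probe sets above the filter, 1 panel each, for rosiglitazone (rosi), carboplatin (carbo), the combination (both) and control. Circles are array 1, triangles array 2 and lines the group means, and every vertical axis spans the same log2 range around its own midpoint. TGFA 205016_at separates into 2 levels, with rosiglitazone and the combination at 7.20 or more and the other groups at 6.75 or less.

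Across the family, 0 of the 12 member probe sets tested passed for rosiglitazone against control, where 0.360% of all probe sets passed. The count was likewise 0 of 12 for carboplatin against control (0.0150% of all passed) and for the combination against control (0.225% of all passed). At an unadjusted limma p under 0.05 there were 6, 2 and 1 of the 12 member probe sets in these comparisons. The shares of all probe sets were 10.4%, 5.17% and 8.42%. The 6 were of EGFR, ERBB2, EREG and TGFA, the 2 both of EGFR, and the 1 of TGFA. The groups did not overlap for 8 of 12 member probe sets with rosiglitazone, where 42.0% of all probe sets did not. There was no overlap either for 4 of 12 with carboplatin (35.1% of all) and 4 of 12 with the combination (36.8% of all). The 8 probe sets with rosiglitazone were 6 higher ones, of TGFA, EREG and EGFR, and 2 lower ones, of ERBB2 and HBEGF. The count of member probe sets that passed was also 0 of 12 for the combination against carboplatin, where 0.157% of all probe sets passed. There 2 member probe sets and 6.43% of all had an unadjusted p under 0.05. It was 0 of 12 for the combination against rosiglitazone (0.0225% of all), with 2 member probe sets and 4.54% of all at an unadjusted p under 0.05. It was 0 of 12 for the interaction (0.00% of all), with 4 member probe sets and 5.97% of all at an unadjusted p under 0.05. These 4 were all of EGFR or ERBB2. In the 4 arrays with carboplatin against the 4 without, 0 of 12 passed, with 0 member probe sets and 4.02% of all at an unadjusted p under 0.05. Of the 5 genes with a tested probe set, 2, 0 and 2 had a change above 0 in the 3 comparisons with control, with medians of -0.08, -0.13 and -0.07. Over 8030 genes the medians were -0.03, -0.02 and -0.02, and 44.1%, 45.5% and 46.1% of changes were above 0. With the deposited scaling the 5 members had 3, 0 and 3 changes above 0 and medians of 0.16, -0.11 and 0.03. Over all 13338 probe sets this scaling gave 10892, 5593 and 8495 changes above 0 and medians of 0.22, -0.05 and 0.08. The sign of the member median turned with rosiglitazone and the combination, but the member median lay below that of all probe sets in both.

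**Figure D4:**
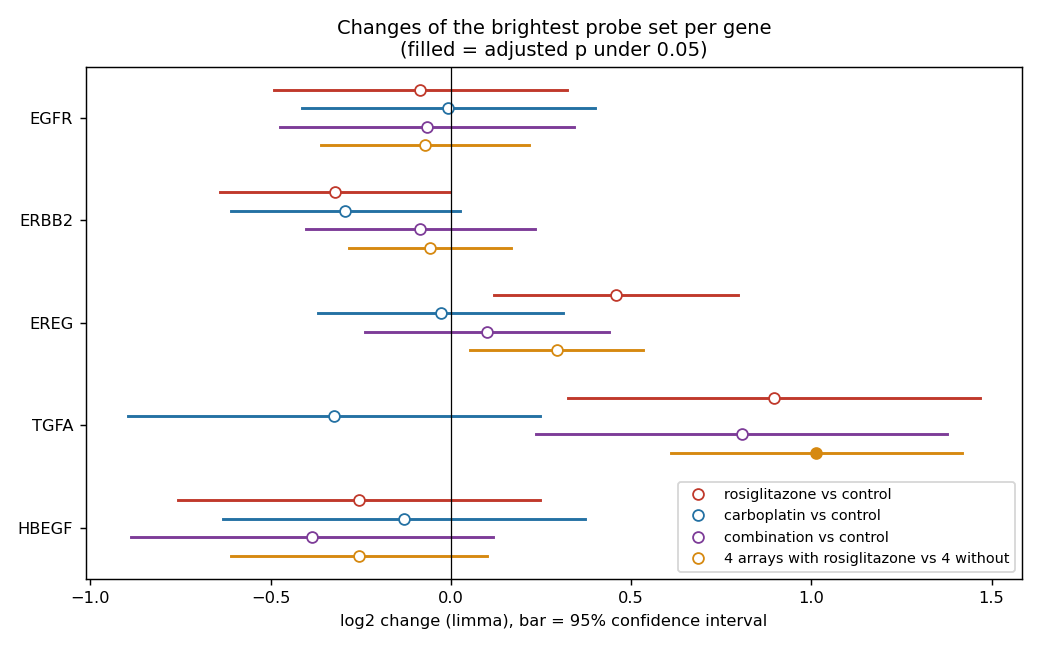
Log2 change, on the horizontal axis, of the brightest probe set of the 5 member genes above the filter, for the 3 comparisons with control and for the 4 arrays with rosiglitazone against the 4 without. Bars are 95% confidence intervals from limma, and the filled point has an adjusted p under 0.05. The 1 filled point is TGFA, at 1.01.

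Other genes of the pathway were taken from 6 lists. Of the receptor ERBB4, the remaining family member, and the ligand NRG1, a neuregulin, neither passed. NRG1 changed by -0.26 ± 0.12 with rosiglitazone, -0.10 ± 0.12 with carboplatin and 0.00 ± 0.12 with the combination, with probe sets of differing sign. ERBB4 changed by -0.11 ± 0.28, -0.05 ± 0.28 and -0.27 ± 0.28 in the same order. All 9 sheddases and their regulators were tested and none passed. The changes were above 0 for 7, 8 and 8 of them with rosiglitazone, carboplatin and the combination, with medians of 0.15, 0.17 and 0.20. ADAM15 had the largest of these, at 0.94 ± 0.39, 0.85 ± 0.39 and 1.01 ± 0.39, and its signal was 28.1 in control 2 against 152 in control 1. ADAM12 changed by 0.61 ± 0.20 with rosiglitazone and 0.49 ± 0.20 with the combination, and its 3 probe sets differed in sign. ADAM10, a main sheddase of ErbB ligands, changed by 0.29 ± 0.13 with carboplatin.

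None of the 11 adaptor and RAS-ERK genes tested passed, and 3, 4 and 5 of them had a change above 0 with rosiglitazone, carboplatin and the combination (medians -0.05, -0.07 and -0.03). PLCG1, a phospholipase recruited by the receptor, changed by 0.72 ± 0.27 with rosiglitazone, 0.89 ± 0.27 with carboplatin and -0.49 ± 0.27 with the combination, where its 2 probe sets differed in sign. MAPK3, which encodes the kinase ERK1, changed by -0.56 ± 0.20, -0.69 ± 0.20 and -0.23 ± 0.20 in the same order. Of the 8 PI3K-AKT genes tested none passed, and 2, 7 and 5 had a change above 0 (medians -0.08, 0.09 and 0.08). With carboplatin the count was 5 of 8 with the deposited scaling (median 0.03) and 4 of 8 with median scaling (0.03). Those with the smallest p-values were the kinase gene PDPK1 (-0.39 ± 0.21) and the regulatory subunit gene PIK3R1 (0.38 ± 0.27) with rosiglitazone. With carboplatin they were AKT2 (0.55 ± 0.38) and the regulatory subunit gene PIK3R3 (0.32 ± 0.33), and with the combination the catalytic subunit gene PIK3CD (-0.38 ± 0.19) and PIK3R3 (0.33 ± 0.33).

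None of the 12 feedback inhibitors tested passed, and 3, 4 and 5 had a change above 0 (medians -0.12, -0.06 and -0.20). SPRY2, a Sprouty inhibitor of receptor signalling, changed by -0.53 ± 0.26 with rosiglitazone and -0.84 ± 0.26 with the combination. The ERK phosphatase gene DUSP4 changed by -0.40 ± 0.22 in both of these comparisons. With carboplatin, SPRED2 changed by -0.43 ± 0.17 and SPRY1 by -0.53 ± 0.25. Among 12 ERK-responsive genes, 3, 4 and 3 had a change above 0 with rosiglitazone, carboplatin and the combination, with medians of -0.24, -0.10 and -0.19. With the deposited scaling, which moved the median of all probe sets to 0.22 for rosiglitazone against control, the median of this list there was 0.01, and that of the feedback inhibitors was 0.13 in place of -0.12. The changes above 0 with rosiglitazone then numbered 10892 of all 13338 probe sets tested. By list they numbered 8 of 11 adaptor and RAS-ERK genes, 7 of 8 PI3K-AKT genes, 7 of 12 feedback inhibitors and 6 of 12 ERK-responsive genes. With the combination the deposited scaling gave 7 of 11 adaptor and RAS-ERK genes, with a median of 0.08 in place of -0.03. For all probe sets it gave 8495 of 13338 there, also with a median of 0.08.

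PHLDA1, a pleckstrin homology-like domain gene that growth factor signalling can induce, was the 1 list gene past the threshold. Its signal was 597 and 823 with rosiglitazone, 306 and 365 with carboplatin, 415 and 728 with the combination, and 412 and 303 in control. It rose by 0.72 ± 0.13 with rosiglitazone (1.65-fold, limma adjusted p = 0.0431), with all 5 of its probe sets above 0. The call was lost in 13 of 18 alternatives, among them the deposited scaling (adjusted p = 0.528), the replicate block (0.0606) and leaving out either control array or either rosiglitazone array (0.165 to 0.278). In the 4 arrays with rosiglitazone against the 4 without, PHLDA1 rose by 0.63 ± 0.09 (limma adjusted p = 0.00548), a call lost in 3 of 17 alternatives. ETV4, an ETS factor gene, had signals of 26.9 and 40.8 with rosiglitazone and 74.7 and 71.7 in control, a change of -1.09 ± 0.22 that did not pass (limma adjusted p = 0.0649). With carboplatin the smallest p-values were those of FOSL1 (-0.38 ± 0.15) and IER2 (-0.23 ± 0.13), and with the combination those of PHLDA1 (0.54 ± 0.13) and IER3 (-0.30 ± 0.12), none of which passed. The probe sets of PHLDA1 differed in sign with the combination.

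**Figure D5:**
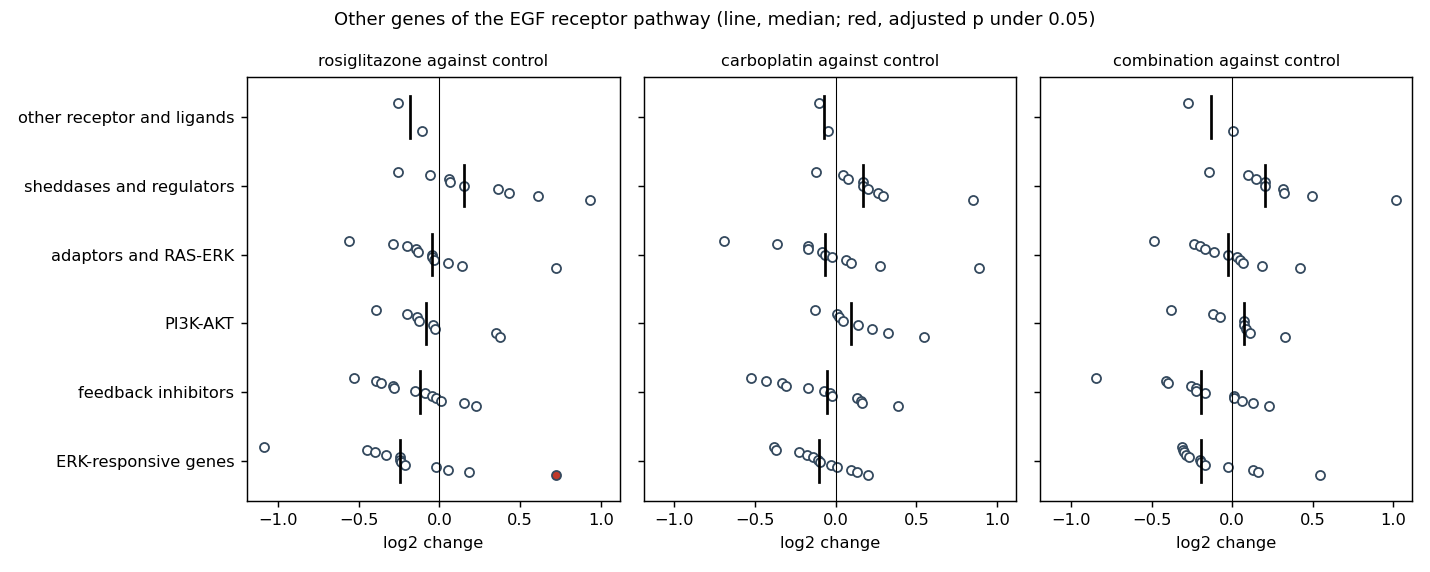
Log2 change, on the horizontal axis, of each tested gene of the 6 pathway lists in the 3 comparisons with control, 1 panel each. Points are genes at their brightest probe set, vertical lines are list medians, and the red point, PHLDA1 at 0.72 with rosiglitazone, is the 1 gene with an adjusted p under 0.05.

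TGFA had the largest range of group means among the 5 tested members, 1.22 in log2, against 0.49 for EREG, 0.38 for HBEGF, 0.32 for ERBB2 and 0.08 for EGFR. Among 8029 other genes, those with the profile most like TGFA over the 8 arrays were STX4 (Pearson r = 0.965), FAM162A (0.955), CPT1A (0.954), RRAGA (0.954) and ADORA2B (0.953). CPT1A, which encodes the carnitine palmitoyltransferase of mitochondrial fatty acid import, had signals of 541 and 646 with rosiglitazone, 249.8 and 331 with carboplatin, 407 and 597 with the combination, and 358 and 312 in control. These correlations describe 8 arrays in 4 groups, and were the highest of a search, so they carry no test.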

How the data were processed

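RNA of 1 cell line was hybridised to 8 Affymetrix HG-U133A arrays, grouped by sample titles. The authors deposited a linear intensity value for each probe set, between 0.032 and 14940.6. For the software, background correction and scaling, the sources used here give no name. The table has no detection calls, and the number of arrays limits the precision. The 2 arrays of a group held no identical columns (r = 0.974 to 0.976).

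Array medians of log2(signal + 16) spanned 0.43, above the limit of 0.2, so values were quantile normalized (limma 3.58.1, R 4.3.3). The pseudocount of 16 understates changes of dim probe sets. The 68 control probe sets and those with a mean below the 40th percentile were left out, which left 13338. In the platform annotation 19071 probe sets have 1 symbol, 1043 several and 2169 none, and 19059 of the first were found in RefSeq with no symbol changed. Each gene was represented by its brightest probe set on average.

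The fit had a mean for each group over all 8 arrays (lmFit, eBayes with intensity trend, 4 residual and 7.1 prior degrees of freedom). Tests of the 8 contrasts were two-sided, and the test was tried on simulated data. Within each contrast, p-values were adjusted by Benjamini-Hochberg over the 13338 probe sets tested, with a threshold of 0.05. All member probe sets are named, with changes for the representative one against control. From each pathway list the genes past the threshold and the 2 smallest p-values per comparison with control are named. Members, lists and settings were chosen with earlier results of these data known. Promoters were read from a RefSeq table.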

Additional observations from a re-analysis of the deposited data

How the results depend on the processing

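The alternatives were 2 other scalings, pseudocounts of 1 and 64, 2 other filters, eBayes without trend, the replicate block, brightness as a covariate, only the groups compared, the mean of a gene's probe sets, and leaving out each array. PHLDA1 was followed after its call was seen. Of 333 alternative values for 18 member changes, 307 kept their direction and side of the threshold. TGFA in the 4 arrays with rosiglitazone against 4 without lost its call with no filter (1.014, adjusted p = 0.125), without trend (1.014, 0.101), with the brightness covariate (1.077, 0.065) and with the mean of its probe sets (0.834, 0.106). The first 3 of these left 0 member probe sets called. Leaving out 1 array gave 0.847 to 1.186, and 0 to 1 members called. For rosiglitazone against control it gave 0 to 2 members called, the 2 being EGFR probe sets without control 1. Values of changed sign, none of them called, were EGFR with the deposited scaling (0.16 with rosiglitazone, 0.031 with the combination) and with the mean of its probe sets (0.416 with rosiglitazone, 0.403 with carboplatin, 0.061 with the combination), and TGFA with carboplatin by the mean of its probe sets (0.058). Leaving out 1 array gave EGFR -0.342 to 0.174, -0.262 to 0.252 and -0.322 to 0.193 with rosiglitazone, carboplatin and the combination, EREG -0.105 to 0.049 with carboplatin and -0.041 to 0.242 with the combination, TGFA -0.666 to 0.023 and HBEGF -0.258 to 0.003 with carboplatin. The causes were not tested. Counts of all probe sets called ran from 3 to 70 (48 as reported) for rosiglitazone against control, 0 to 2 (2) for carboplatin, 5 to 46 (30) for the combination, 4 to 27 (21) for combination against carboplatin, 0 to 3 (3) against rosiglitazone, 0 to 3 (0) for the interaction, 36 to 142 (118) for the rosiglitazone and 1 to 4 (4) for the carboplatin contrast of 4 arrays with 4.

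The labels number the arrays of each group 1 and 2, and deviations of same-numbered arrays correlated at -0.11 to 0.253 between groups, so the numbers were not taken as pairs. With the replicate block TGFA was at 1.014 (adjusted p = 0.0428) and the call of PHLDA1 with rosiglitazone was lost (0.723, adjusted p = 0.0606). No call of a member changed with the block.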
